A study of Mus musculus with 9 samples.

Results

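The inhibitory checkpoint receptors of T cells and the genes tied to T cell exhaustion were followed through 9 mouse liver tumors. The members were Pdcd1, Ctla4, Lag3, Havcr2, Tigit, Btla and Cd160, which encode inhibitory receptors, Tox, which encodes a nuclear factor of exhausted T cells, and Entpd1, which encodes the ectonucleotidase CD39. These 9 of 52163 gene symbols were taken by name, and the FPKM of every entry that named a member was summed in each tumor. FPKM is fragments scaled to transcript length and to the mapped fragments of the library, so levels can be set side by side between genes.

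Inhibitory receptors appear on T cells after activation and dampen signaling from the T cell receptor, usually by recruiting phosphatases or by competing for ligands. Under lasting antigen exposure several of them are expressed together, and the transcription factor TOX maintains this state, which is called exhaustion. Antibodies to PD-1, the product of Pdcd1, keep the receptor from its ligands. They do not act on the transcript itself, and some of the members are also expressed outside T cells, CD39 and TIM-3 on myeloid and endothelial cells among them.

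All tumors were orthotopic, grown in the liver of C57BL/6 mice from Hepa1-6, a mouse hepatoma line. The mice, 6 to 8 weeks old, received PBS or anti-PD-1 antibody at 5 mg per kg by intraperitoneal injection, 5 injections at intervals of 4 days. Of the antibody-treated tumors the 3 largest were called nonresponsive and the 3 smallest responsive, and those between were left out by the study, so response means final tumor size at collection. The groups were 3 PBS, 3 nonresponsive and 3 responsive tumors, each the whole tumor of 1 mouse profiled by bulk RNA sequencing. In bulk tumor RNA, fewer cells of a type and less RNA per cell cannot be told apart.

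The depth of the libraries is unknown, because the files give no counts. The commonest ratio between low values of the same genes put it at 0.935 to 1.07 times that of PBS tumor 1. Only ratios close to equal depth were searched, so a large difference in depth could not have shown. PBS tumor 1 stood apart, with the lowest mean of the T cell markers, 2.93 on the log2(FPKM + 1) scale against 3.61 to 4.64 in the other 8 tumors. Its hepatocyte markers were also the lowest, at 3.71 against 6.24 to 9.04. Afp, which Hepa1-6 cells express, was 0.321 FPKM in nonresponsive tumor 1 and 0.646 FPKM in responsive tumor 1, against 4.40 to 56.5 FPKM in the other tumors. Results against PBS are also given without PBS tumor 1 where that changes them.

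Pdcd1 and Tigit are the 2 members whose patterns are contrasted below, with Pearson's r of -0.53 over the 9 tumors. Other pairs contrasted more, Havcr2 and Tigit among them at -0.78. The 250 bases before the transcription starts of Pdcd1 and Tigit are shown, from RefSeq on GRCm38.p6. Of the 9 members, 7 were found in that promoter table. Capitals mark 2 short motifs searched on both strands, GGAAA, the core of NFAT sites, and CTTTG, the core of TCF and LEF sites, which do not overlap each other here. NFAT carries calcium signals from the T cell receptor, and TCF-1, encoded by Tcf7, marks stem-like T cells. Pdcd1 lies at chr1:94052554-94052803 on the minus strand and Tigit at chr16:43664185-43664434 on the minus strand.
Pdcd1: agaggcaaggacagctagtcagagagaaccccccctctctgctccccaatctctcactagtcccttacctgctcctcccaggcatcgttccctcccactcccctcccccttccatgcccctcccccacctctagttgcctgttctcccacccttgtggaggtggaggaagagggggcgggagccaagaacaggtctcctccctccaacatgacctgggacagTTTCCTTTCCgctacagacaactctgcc
Tigit: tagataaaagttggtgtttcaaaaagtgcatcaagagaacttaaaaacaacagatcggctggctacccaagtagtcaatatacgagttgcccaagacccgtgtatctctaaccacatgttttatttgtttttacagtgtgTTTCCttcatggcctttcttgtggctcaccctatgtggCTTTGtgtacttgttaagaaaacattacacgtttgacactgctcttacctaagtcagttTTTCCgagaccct
The Pdcd1 window held GGAAA 2 times, both as the reverse complement, and CTTTG 0 times, while the Tigit window held GGAAA 2 times and CTTTG once. GGAAA was present in 55.6% and CTTTG in 48.6% of the 32851 promoters of this length, so either match is common.

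Pdcd1 was the member that separated the treated groups most clearly. Its level was 4.97, 4.95 and 3.75 FPKM in the nonresponsive tumors and 8.18, 7.39 and 7.23 FPKM in the responsive tumors. Every responsive tumor lay above every nonresponsive tumor. The PBS tumors spanned both, at 1.44, 8.65 and 3.18 FPKM. Mean Pdcd1 was 7.60 ± 0.51 FPKM (SD, n = 3) in responsive, 4.56 ± 0.69 in nonresponsive and 4.43 ± 3.76 in PBS tumors, a 1.67-fold difference of means between the treated groups.

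On the log2(FPKM + 1) scale the responsive over nonresponsive difference of Pdcd1 was 0.64 with an SE of 0.19 and a 95% interval of 0.17 to 1.10. The limma test gave an unadjusted p of 0.0152 and a Benjamini-Hochberg adjusted p of 0.887 over the 15177 symbols tested, so the difference did not pass the correction. The exact two-sided permutation test gave p = 0.10, the smallest that 3 tumors against 3 can reach. With the PBS tumors in the same fit the difference was unchanged and the unadjusted p was 0.188. Without responsive tumor 1 the difference was 0.59 with a p of 0.0543, and with the hepatocyte markers as a covariate it was 0.20 with a p of 0.645.

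**Figure D1:**
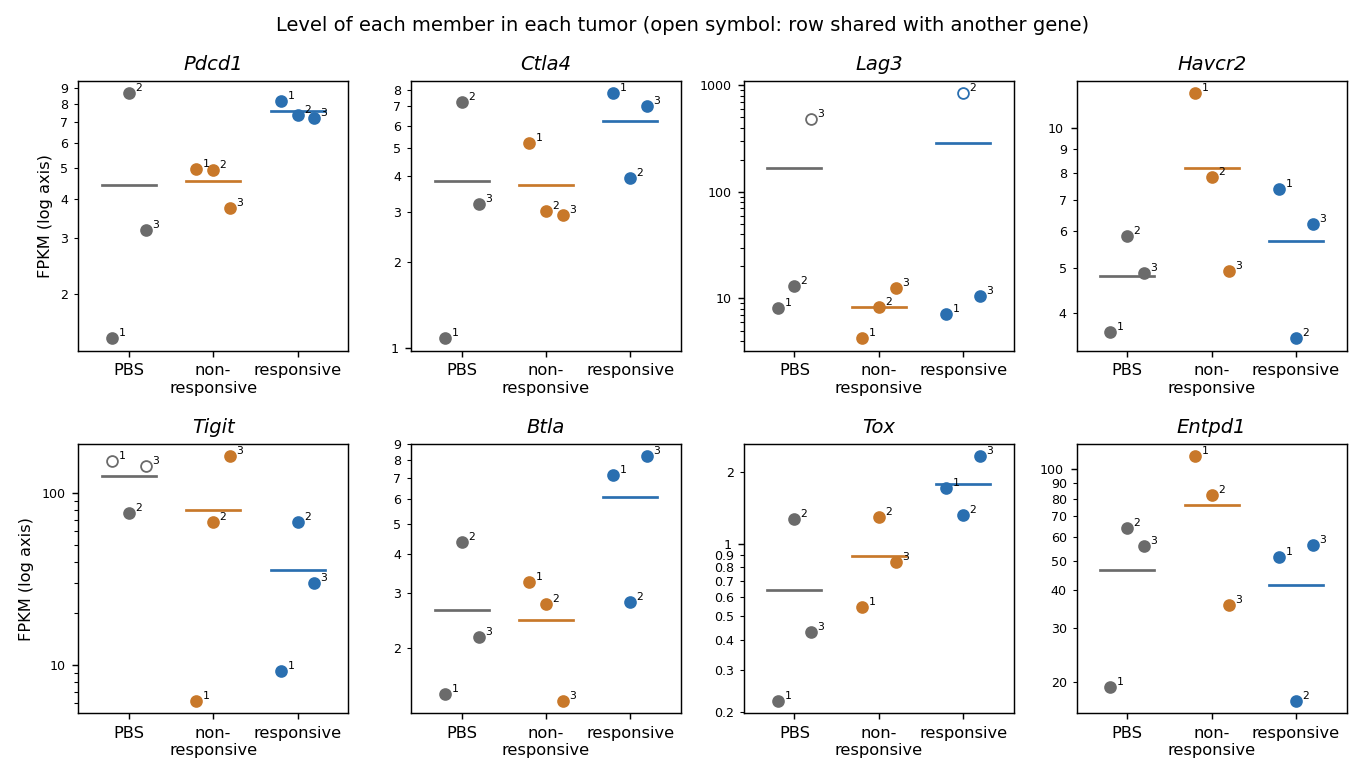
FPKM on a log axis (y) of the 8 members with values above 0 in the PBS, nonresponsive and responsive tumors (x), with 1 point per tumor labelled by its replicate number, a bar at the group mean and open symbols where the row is shared with another gene. The responsive tumors sit above the nonresponsive tumors for Pdcd1 and Tox, Tigit is lowest in nonresponsive tumor 1 and responsive tumor 1, and the 2 high Lag3 points are rows shared with Ptms.

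Ctla4, whose product competes with CD28 for CD80 and CD86, had a similar order. It stood at 1.08, 7.25 and 3.18 FPKM in PBS tumors, 5.23, 3.02 and 2.93 in nonresponsive tumors, and 7.78, 3.92 and 7.03 in responsive tumors. Responsive tumors 1 and 3 were above all nonresponsive tumors and responsive tumor 2 was not. The responsive over nonresponsive difference was 0.61 (SE 0.32, limma adjusted p = 0.904), and the estimate for nonresponsive tumor 1 was loose, with the authors' Cufflinks interval running from 0.0780 to 10.4 FPKM.

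Btla encodes a receptor for HVEM on B cells and T cells. Its level was 1.42, 4.36 and 2.17 FPKM in PBS tumors, 3.24, 2.77 and 1.35 in nonresponsive tumors, and 7.18, 2.81 and 8.26 in responsive tumors. The groups overlapped through responsive tumor 2 alone. The mean of the responsive tumors was 2.48 times that of the nonresponsive tumors, the difference on the log2 scale was 0.98 (SE 0.43), and the adjusted p from limma was 0.887.

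Tox was low in all tumors. It was 0.222, 1.27 and 0.430 FPKM in PBS tumors, 0.547, 1.30 and 0.841 in nonresponsive tumors, and 1.71, 1.31 and 2.32 in responsive tumors. No responsive value fell within the range of the other groups, although the gap to nonresponsive tumor 2 was far smaller than the width of either tumor's Cufflinks interval, 0.962 to 1.63 and 0.955 to 1.67 FPKM. Tox differed by 0.56 between responsive and nonresponsive tumors (SE 0.26, limma adjusted p = 0.887).

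Havcr2, which encodes TIM-3, and Entpd1 ran the other way. Havcr2 was 3.64, 5.85 and 4.87 FPKM in PBS tumors, 11.9, 7.84 and 4.93 in nonresponsive tumors, and 7.41, 3.52 and 6.21 in responsive tumors. The highest values of both genes were in nonresponsive tumor 1, and all groups overlapped. Entpd1 was 19.3, 64.1 and 56.1 FPKM in PBS tumors, 110.6, 82.1 and 35.7 in nonresponsive tumors, and 51.5, 17.3 and 56.3 in responsive tumors. Responsive over nonresponsive differences were -0.43 (SE 0.38) for Havcr2 and -0.88 (SE 0.61) for Entpd1, both with an adjusted p of 0.971 in limma. The Cufflinks interval of Entpd1 reached 0 in PBS tumor 1 and responsive tumor 2, its lowest values.

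Tigit, which encodes a receptor for the poliovirus receptor CD155, was the most variable of the members whose rows were not joined to a much more abundant gene. It stood at 155, 77.1 and 145 FPKM in PBS tumors, 6.16, 68.1 and 165 in nonresponsive tumors, and 9.21, 67.9 and 29.9 in responsive tumors. The highest tumor had 26.9 times the FPKM of the lowest, and nonresponsive tumors held both of them. All PBS tumors were above all responsive tumors. In PBS tumors 1 and 3 the row also named a predicted gene, Gm49735 or Gm49734, which elsewhere had at most 3.92 FPKM in a row of its own. The responsive over nonresponsive difference was -0.64 (SE 1.30, limma adjusted p = 0.979), far inside its own error.

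Lag3 encodes a receptor that binds MHC class II. It was named alone in 7 tumors, with 8.21 and 13.2 FPKM in PBS tumors 1 and 2, 4.21, 8.36 and 12.6 in the nonresponsive tumors, and 7.16 and 10.4 in responsive tumors 1 and 3. In PBS tumor 3 and responsive tumor 2 its row also named Ptms, an abundant neighboring gene, and stood at 484 and 842 FPKM. Ptms alone was 432 to 639 FPKM in the other tumors, so these 2 values do not measure Lag3. The summed value of the rule gave a responsive over nonresponsive difference of 2.30 (SE 1.81), and without the 2 tumors the difference was 0.15. No direction is drawn for Lag3 from the sum. The authors' pooled values, from a locus that names Lag3 alone, were 9.84 FPKM for PBS, 9.86 for nonresponsive and 11.9 for responsive tumors.

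Cd160, the gene of a receptor for HVEM on cytotoxic lymphocytes, was listed at 0 in all 9 tumors. No estimate was marked as failed, but an exact 0 here need not mean absence. The authors' pooled values, over a far longer locus, were 1.99, 1.23 and 1.94 FPKM for PBS, nonresponsive and responsive tumors. Listed at 0, Cd160 entered no test.

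By mean FPKM over the 9 tumors the order was Tigit at 80.5, Entpd1 at 54.8, Havcr2 at 6.24, Pdcd1 at 5.53, Ctla4 at 4.60, Btla at 3.73 and Tox at 1.11. Lag3 was left out of this order because of its shared row and Cd160 because it was listed at 0. Tigit and Entpd1 overlapped across tumors, and so did the 4 receptors from Havcr2 to Btla. The order differed within the responsive tumors, where Entpd1, with a mean of 41.7 FPKM, stood above Tigit at 35.7, and Havcr2 at 5.71 stood below Pdcd1 at 7.60, Ctla4 at 6.24 and Btla at 6.08. The lowest Entpd1 value was above the highest of Havcr2, Pdcd1, Ctla4, Btla and Tox.

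Against the nonresponsive tumors, 1 of the 8 members tested, Pdcd1, had an unadjusted p under 0.05 in limma, where 5.44% of all symbols tested did in either direction and 4.01% as higher. The adjusted p was under 0.05 for 0 members and for 15 symbols. Pdcd1 and Tox were the 2 members whose groups did not overlap, both higher, where 10.7% of symbols did not overlap in either direction and 5.97% were higher. Without Lag3, left out because of its shared row after its values were seen, 4 of the other 7 members with values above 0 FPKM had a positive difference, Pdcd1, Ctla4, Btla and Tox, where 43.0% of all symbols tested did. The median over the 7 was 0.56, or 0.58 with the Lag3 sum and 0.39 with Lag3 and Ptms taken as 1 locus in every tumor, against -0.06 over all symbols tested.

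The responsive tumors against PBS gave another leading pair, Tigit and Tox. Tigit was lower by -2.12 (SE 0.73, 95% interval -3.94 to -0.30), with an unadjusted p of 0.0294 and an adjusted p of 0.279 in limma. Tox was higher by 0.80 (SE 0.30, 95% interval 0.05 to 1.55), with an unadjusted p of 0.0411 and an adjusted p of 0.285. Both had an exact permutation p of 0.10. These were 2 of 8 members with an unadjusted p under 0.05, where 17.3% of all symbols had one, and 2 of 8 without overlap, where 28.0% had none. The adjusted p was under 0.05 for 0 members and 33 symbols.

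Both unadjusted calls depended on single tumors and on the fit. Without PBS tumor 1 the unadjusted p was 0.0767 for Tigit and 0.113 for Tox, without PBS tumor 3 it was 0.0795 and 0.110, and without responsive tumor 3 it was 0.0624 and 0.126. Without responsive tumor 1 it was 0.0853 for Tox. With the hepatocyte markers as a covariate the Tigit difference was 0.0165 and that of Tox 0.54 with a p of 0.269. In that fit Entpd1 was the 1 member with a p under 0.05, where 697 of 15197 symbols had one. With all 9 tumors in 1 fit Tigit had a p of 0.105 and Tox 0.0263, and with a pseudocount of 0.1 Tox had 0.0560. Without PBS tumor 2, the PBS tumor richest in T cell markers, 5 members had an unadjusted p under 0.05, where 2516 of 14807 symbols had one. These 5 were Pdcd1, Ctla4, Btla, Tox and Tigit. Pdcd1 itself differed from PBS by 0.89 (SE 0.50, limma adjusted p = 0.356), Btla by 0.94 (SE 0.46) and Ctla4 by 0.76 (SE 0.55).

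**Figure D2:**
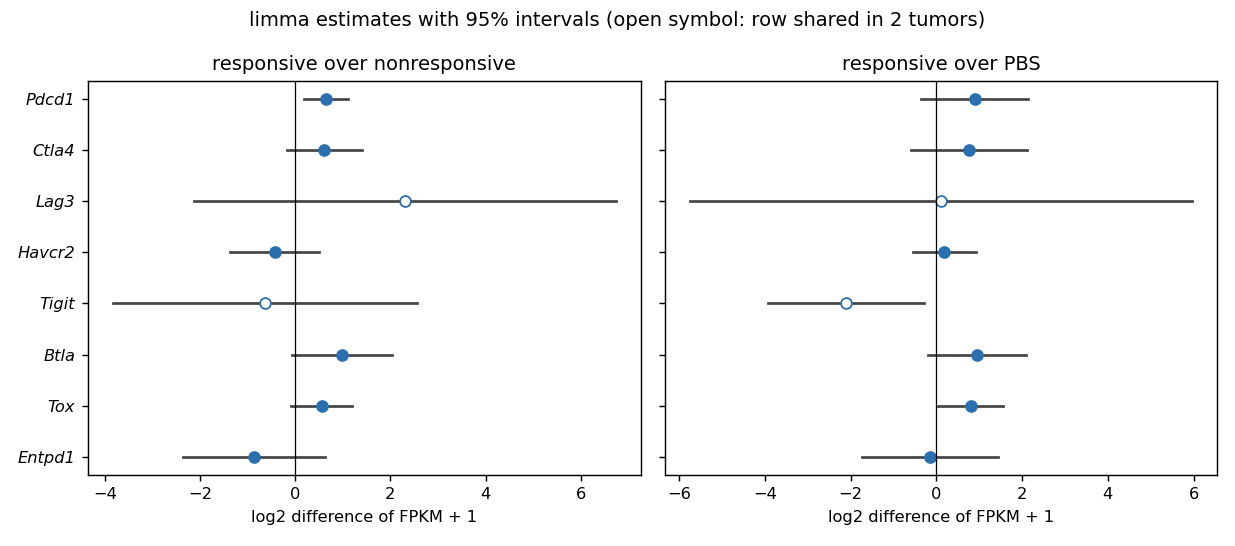
limma estimates (points) with 95% intervals (lines) of the log2 difference of FPKM + 1 (x) for 8 members (y), responsive over nonresponsive on the left and responsive over PBS on the right, with open symbols for genes whose row was shared in 2 tumors. The interval of Pdcd1 on the left runs from 0.17 to 1.10, and on the right the intervals of Tigit and Tox leave out 0.

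Nonresponsive tumors differed from PBS tumors in 0 of 7 tested members at an unadjusted p under 0.05 in limma, where 3.19% of symbols had one, and every member's groups overlapped, where 8.06% of symbols did not. The adjusted p was under 0.05 for 0 members and 11 symbols. The values were 0.26 (SE 0.51) for Pdcd1, 0.15 (SE 0.53) for Ctla4, 0.62 (SE 0.34) for Havcr2 and 0.73 (SE 0.61) for Entpd1. The Pdcd1 interval, -1.01 to 1.52, was wide, and Tox, too low to be tested in this pair, had means of 0.895 and 0.641 FPKM. Without nonresponsive tumor 3, Havcr2 alone had an unadjusted p under 0.05, where 2067 of 14836 symbols had one, against 483 of 15153 with all tumors.

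With the 6 antibody-treated tumors taken as 1 group, 0 of 8 members had an unadjusted p under 0.05 in limma against PBS, where 10.3% of symbols did, and 0 did not overlap, where 2.91% of symbols did not. The adjusted p was under 0.05 for 0 members and 5 symbols. Pdcd1 differed by 0.58 (SE 0.41), Tox by 0.52 (SE 0.29) and Tigit by -1.80 (SE 0.96). In a limma F test over the 3 groups, 0 of 8 members had an unadjusted p under 0.05, where 8.30% of symbols did, and the adjusted p lay between 0.603 for Tox and 0.696 for Lag3. The 3 comparisons with PBS share its tumors, and those between pairs of groups share the rest, so they are not independent of each other.

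T cell markers moved with 4 of the 8 members, Pdcd1, Ctla4, Btla and Tox, with Pearson's r of 0.75 to 0.95 over the 9 tumors. For Havcr2, Entpd1 and Tigit r was 0.30, 0.32 and -0.45. The r of 0.06 for Lag3 includes the rows shared with Ptms, so no reading is drawn from it. The mean of 18 T cell markers was 3.78 to 4.03 in nonresponsive, 4.15 to 4.64 in responsive and 2.93 to 4.48 in PBS tumors. In the responsive over nonresponsive comparison all 18 had a positive difference and 6 were higher at an unadjusted p under 0.05, with a median of 0.44 and no adjusted p under 0.05. Trbc1 and Trbc2, constant regions of the T cell receptor, shared 1 row in every tumor, and with that row counted once 5 of 17 were higher, with a median of 0.43. Cd247, Cd8a, Lck, Lat and Trac, also in the list, were named alone in 0 tumors. Cd3d, a subunit of the T cell receptor complex, was 8.88, 8.71 and 8.44 FPKM in nonresponsive and 12.8, 15.2 and 14.4 FPKM in responsive tumors. Cd2 and Zap70, an adhesion receptor and a kinase of T cell signaling, differed by 0.69 and 0.65, about as much as Pdcd1.

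Each member was therefore also set against the T cell markers of its own tumor, as its log2(FPKM + 1) minus their mean. For Pdcd1 this was -1.29 ± 0.32 (SD, n = 3) in responsive and -1.45 ± 0.07 in nonresponsive tumors. The difference fell from 0.64 to 0.16 and the groups overlapped, with an exact two-sided permutation p of 0.60. For Ctla4 it was 0.13, for Tox 0.08 and for Btla 0.51, with exact p of 0.70, 0.70 and 0.30. Havcr2 and Entpd1 were lower against T cell markers in responsive tumors, by -0.91 and -1.35, each with an exact p of 0.20. Of the 8 members, 0 had responsive and nonresponsive groups without overlap on this scale, and 3 tumors against 3 cannot give a p under 0.10. Against PBS on the same scale, responsive tumors differed by 0.17 for Pdcd1 and 0.07 for Tox, with exact p of 0.60 and 0.80. Tigit alone did not overlap there, lower by -2.84 with an exact p of 0.10. The Tox values depended on the pseudocount. At 0.1 in place of 1, Tox differed by 0.74 between responsive and PBS tumors, without overlap and with an exact permutation p of 0.10. Between responsive and nonresponsive tumors it then differed by 0.45, with overlap and an exact permutation p of 0.40.

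Across the 9 tumors Pdcd1 followed T cell and dendritic cell markers about equally, with Pearson's r = 0.95 against the mean of the former and 0.96 against that of the latter, and 0.93 for both after the group means were removed. These correlations describe 9 libraries that share tumor content, and no p is given. The 3 genes most like Pdcd1, among 10320 symbols named alone in all tumors, were all T cell surface genes: Cd3d (r = 0.96), Cd2 (r = 0.96) and Cd5 (r = 0.96). Ctla4 had r = 0.87 against T cell, 0.88 against B cell and 0.89 against dendritic cell markers and 0.91 against Pdcd1, and the genes most like it were Slc43a1, Gja4 and Tbx2.

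B cell and dendritic cell markers were close to the pattern of Btla and Tox. Btla had r = 0.88 against the mean of 10 B cell markers, 0.84 against dendritic cell and 0.75 against T cell markers, and the genes most like it were Fcrl1, a receptor of B cells, Nipal3 and Ccr6. Tox had r = 0.91 against dendritic cell, 0.89 against B cell and 0.86 against T cell markers, or 0.86, 0.76 and 0.77 after the group means were removed, with Slc35e2, Aff3 and Dclk1 most like it. Between nonresponsive and responsive tumors, 8 of 10 B cell markers were higher in the latter at an unadjusted p under 0.05, with a median of 1.69 over the list and no adjusted p under 0.05. Ms4a1, which encodes CD20, was 4.89, 3.45 and 2.85 FPKM in nonresponsive and 17.6, 6.14 and 28.0 FPKM in responsive tumors. The part of B cells and dendritic cells in the levels of Btla and Tox was not tested.

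Havcr2 and Entpd1 followed macrophage and endothelial markers instead. They had r = 0.92 and 0.89 against the mean of 14 macrophage markers, 0.90 and 0.82 against that of 10 endothelial markers, and 0.30 and 0.32 against T cell markers. The genes most like Entpd1 were Ccr1 and Cxcr2, chemokine receptors of myeloid cells, and Mgat4a, and those most like Havcr2 were Parvb, Lrrc8d and Gcnt1. Adgre1, which encodes F4/80, was highest in nonresponsive tumors 1 and 2, at 77.7 and 95.8 FPKM, the tumors where both members were highest.

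**Figure D3:**
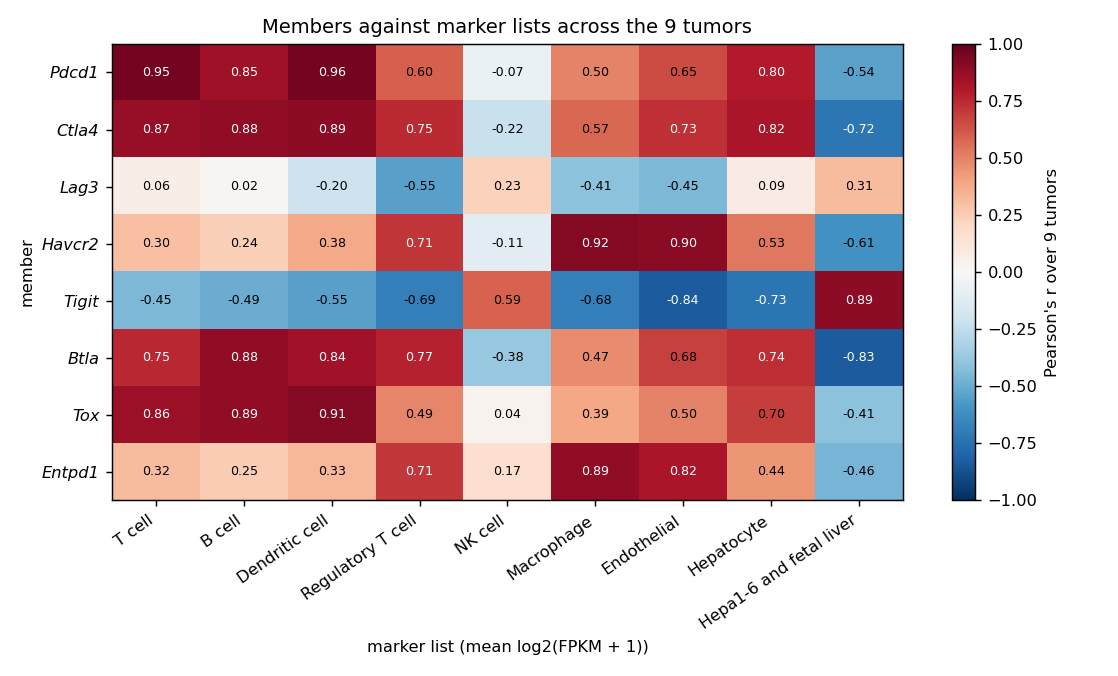
Pearson's r over the 9 tumors (color and printed value) between the log2(FPKM + 1) of each of 8 members (rows) and the mean log2(FPKM + 1) of 9 marker lists (columns). The Lag3 values include the rows shared with Ptms and do not measure Lag3 alone. Pdcd1, Ctla4 and Tox are highest with T cell, B cell and dendritic cell markers, and Btla with B cell and dendritic cell markers. Havcr2 and Entpd1 are highest with macrophage and endothelial markers, and Tigit with markers of the tumor line.

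Tigit followed neither. Its r was -0.45 against T cell markers and -0.53 against Pdcd1, but 0.89 against the mean of 6 markers of Hepa1-6 and fetal liver. The list holds Afp, the alpha-fetoprotein gene (r = 0.90), and also Mki67 (r = 0.94) and Top2a, genes of dividing cells. Igf2, in the same list and named alone in 0 tumors, ran otherwise. It was 5.47 and 6.13 FPKM in nonresponsive tumor 1 and responsive tumor 1, where Tigit was lowest, and 1.12 and 1.92 FPKM in PBS tumors 1 and 3. Top2a, a topoisomerase of dividing cells whose row also named the predicted gene Gm23451 in every tumor, stood at 111, 57.5 and 97.2 FPKM in PBS tumors, 10.05, 75.0 and 148 in nonresponsive tumors, and 15.1, 80.4 and 51.3 in responsive tumors. It was low in the same tumors as Tigit, nonresponsive tumor 1 and responsive tumor 1, and r was 0.98 between them, or 0.88 without the 2 tumors farthest from the median of Top2a. Single T cell genes differed in sign. Over the 9 tumors Tigit had r = -0.40 with Cd3e and -0.40 with Cd3g, subunits of the T cell receptor complex. With the coreceptor genes Cd4 and Cd8a r was -0.63 and 0.29. With Zbtb20, the neighbor of Tigit on the same chromosome, whose row also named Mir568, r was 0.94. The genes most like Tigit, looked up after its values were seen because its row is shared, were Mcm3, Samd5, Mcm8, Polr1a and Spdl1, of which Mcm3 and Mcm8 act in DNA replication. The source of the Tigit signal was not tested.

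Tcf7 and Eomes, used as T cell genes in lists of exhaustion, shared that pattern. Tcf7 was 158, 80.7 and 135 FPKM in PBS tumors, 7.40, 80.5 and 126 in nonresponsive tumors, and 14.3, 110 and 43.6 in responsive tumors, with r = 0.98 against Tigit. Eomes had r = 0.95 against Tigit. The responsive over nonresponsive difference of Tcf7 was -0.07 (SE 1.22, limma adjusted p = 0.998).

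**Figure D4:**
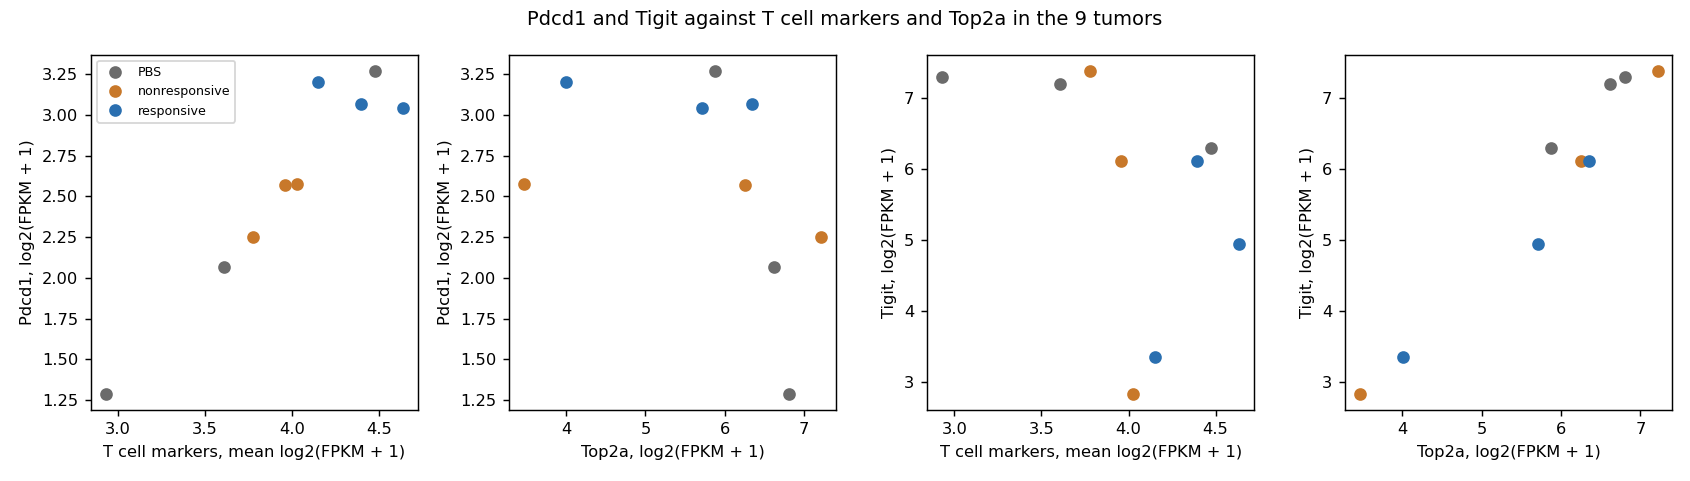
Pdcd1 (left pair) and Tigit (right pair), log2(FPKM + 1) on the y axes, against the mean log2(FPKM + 1) of T cell markers and against Top2a (x axes), with 1 point per tumor colored by group. Pdcd1 rises with the T cell markers (r = 0.95) and Tigit with Top2a (r = 0.98).

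The ligands and partners of the members did not separate the treated groups. Of 15 such genes, 0 had an unadjusted p under 0.05 between responsive and nonresponsive tumors, with a median of -0.16. Cd274, which encodes PD-L1, was 25.3, 87.1 and 96.0 FPKM in PBS tumors, 158, 62.9 and 65.5 in nonresponsive tumors, and 60.1, 56.0 and 97.9 in responsive tumors. All 3 groups overlapped. Fgl1, a liver-made ligand of LAG-3, was 305, 149 and 104 FPKM in nonresponsive and 380, 210 and 332 FPKM in responsive tumors, a difference of 0.82 (SE 0.47), and Ceacam1, a partner of TIM-3, differed by 0.69 (SE 0.41). Pdcd1lg2, which encodes PD-L2, differed by -1.98 (SE 1.19), with responsive tumor 3 listed at 0. The most abundant were Hmgb1 and Lgals3, with mean levels of 374 and 269 FPKM over the 9 tumors. In at least 1 tumor the rows of Hmgb1, Cd274, Fgl1, Ceacam1, Vsir, Pilra, Tox2, Bach2 and Ccl5 also named another gene.

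Against PBS, 4 of the 15 were higher in responsive tumors at an unadjusted p under 0.05, and 1 of them, Nectin2, passed the correction. Nectin2, which encodes a ligand of TIGIT, was listed at 0 in all 3 PBS tumors and at 28.6 to 40.0 FPKM in the antibody-treated tumors. The authors' pooled value for PBS, over a locus of 49171 bases, was 30.9 FPKM, next to 32.6 and 33.0 for the other groups, so no direction is drawn from these zeros. Nectin3, also a ligand of TIGIT, was 3.34, 3.81 and 3.72 FPKM in PBS and 8.15, 5.65 and 7.29 FPKM in responsive tumors, which did not overlap. Its difference was 0.79 (SE 0.18), with an unadjusted p of 0.00539 and an adjusted p of 0.279 in limma. Fgl1 and Ceacam1 had an unadjusted p of 0.0451 and 0.019 in the same comparison. Of 17 hepatocyte markers all were positive there, 14 of them at an unadjusted p under 0.05.

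Other inhibitory receptors of lymphocytes, 14 genes, had 2 higher and 1 lower at an unadjusted p under 0.05 between responsive and nonresponsive tumors. Cd22 and Cd5, inhibitory receptors of B cells and of T and B-1 cells, were higher by 0.98 (SE 0.35) and 0.58 (SE 0.23), and Cd244a, which encodes the receptor 2B4, was lower by -0.74 (SE 0.29). None had an adjusted p under 0.05, and the median of the list was 0.07. Vsir, which encodes VISTA, Pilra and Pecam1 were the most abundant and differed by -0.82, -1.51 and -0.15.

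The transcription factors tied to exhaustion did not pass in this comparison, with 0 of 16 genes at an unadjusted p under 0.05 and a median of 0.02. Tox2, the closest relative of Tox in the list, was 0.989, 1.45 and 0.580 FPKM in nonresponsive and 2.45, 1.20 and 2.63 FPKM in responsive tumors (difference 0.61, SE 0.30). Batf and Nr4a1, factors downstream of T cell receptor signaling, differed by 0.53 and 0.58. Id2, Id3 and Maf were the most abundant and differed by 0.03, 0.37 and -0.75.

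Genes of stem-like T cells, 13 in all, had 0 of 12 tested at an unadjusted p under 0.05, with a median of 0.20. Lef1, Bach2 and Ccr7 differed by 0.48, 0.75 and 0.43, and Klf2 by -0.03. The genes of effector and terminally exhausted T cells had 1 of 16, Cd244a again, with a median of 0.08. The chemokine genes Ccl3, Ccl4 and Ccl5 were the most abundant of them and differed by 0.46, 0.79 and 0.23. Of 12 signaling partners of the inhibitory receptors, 0 had an unadjusted p under 0.05, and Ptpn6, the phosphatase SHP-1 recruited by several members, differed by 0.01 (SE 0.22). Sh2d1a, an adaptor of the 2B4 family, differed by 0.58 (SE 0.32). Median differences of these lists lay between 0.01 and 0.20, against -0.06 over all symbols tested.

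Marker genes of other cell types that could carry the members were compared in the same way. None of those in the lists below had an adjusted p under 0.05 in limma between responsive and nonresponsive tumors. Between responsive and nonresponsive tumors the median difference was 1.38 over 17 hepatocyte markers, of which 7 were higher at an unadjusted p under 0.05, and -0.57 over 14 macrophage markers, of which 1, Fcgr1, was lower. It was 0.16 over 10 dendritic cell markers, with Flt3 higher, -0.09 over 10 endothelial markers, with 0 passing, and 0.06 over 9 regulatory T cell markers, with 0 passing. Foxp3, the defining factor of regulatory T cells, was listed at 0 in 5 tumors and was named alone in 0 tumors. The authors' pooled values, from a locus that names Foxp3 alone, were 1.81 FPKM for PBS, 1.96 for nonresponsive and 1.78 for responsive tumors. No absence is read from these zeros. Of 6 NK cell markers tested of 10 listed, 1 was lower, Klrb1c, whose row also named Klrb1b, and the median was -0.23. Of the 6 genes listed as Hepa1-6 and fetal liver markers, 1 was lower, H19, whose row also named a microRNA gene, and the median was -0.54. The part of cell content in the differences of the members was not tested beyond the setting against T cell markers and the hepatocyte covariate.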

How the data were processed

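Whole tumors were profiled by bulk RNA sequencing. The authors deposited 1 Cufflinks table per tumor with FPKM per assembled gene, from TopHat2 2.1.1 and Bowtie2 2.2.4 alignments per the submitters' processing notes, which name mm8 as the build. The coordinates in the files did not settle the build, so none is printed from them. Transcripts were assembled in each tumor, so a row can name neighboring genes in one tumor and not in another. A table of the whole series holds group FPKM values, printed as the authors' pooled values, and Cuffdiff fold changes, p-values and q-values, which were not used.

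FPKM of rows naming a symbol was summed per tumor. Symbols with a failed estimate in any tumor, 13 in all, were left out. Differences were tested in limma 3.58.1 (R 4.3.3) with a trended prior on log2(FPKM + 1), a pseudocount of 1, for symbols at 1 FPKM or more in at least 3 of the tumors compared, with Benjamini-Hochberg adjustment over all symbols tested. The fold changes are on the log2(FPKM + 1) scale, which understates the change of low genes. Only the tumors of the groups compared entered each fit. Single values were also compared by exact two-sided permutation tests. Each tumor is 1 mouse, and n is 3 per group. The limma step was tested on simulated data.

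Genes were named from these: all 9 members, from each list the 3 genes with the highest mean FPKM, the 3 with the smallest p between responsive and nonresponsive tumors and any with an adjusted p under 0.05, and the 3 symbols most correlated with each member. Cd274, Adgre1, Cd3e, Cd3g, Cd4, Cd8a, Cd247, Lck, Lat, Trac, Eomes, Foxp3, Nectin3, Gm23451, Zbtb20, Mir568 and the genes most like Tigit fall outside this rule and were chosen after their values were seen. The members and lists were chosen with earlier results of these data known.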

Additional observations from a re-analysis of the deposited data

How the results depend on the processing

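The median difference of the 8 members above 0 stayed positive in the responsive over nonresponsive comparison under every alternative run, with values of 0.40 to 0.60 when a tumor was left out, 0.30 with the hepatocyte covariate and 0.39 with joined loci. Against PBS, leaving out a tumor gave 0.15 to 0.74 for responsive, -0.25 to 0.57 for nonresponsive and 0.04 to 0.68 for all antibody-treated tumors, and the hepatocyte covariate turned these medians to -0.25, -0.30 and -0.20. With this covariate the Tigit difference of responsive over PBS tumors was 0.0165 in place of -2.12. The cause was not tested.

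The number of members with an unadjusted p under 0.05 between responsive and nonresponsive tumors was 1, where 825 of 15177 symbols had one. It was 0 with all 9 tumors in 1 fit (870 of 15177 symbols). With the hepatocyte covariate it was 2, Entpd1 and Havcr2 (1408 of 15177 symbols). It was 0 to 3 when a tumor was left out, where 344 of 14772 to 1563 of 14834 symbols had one. Without the tumors whose Lag3 row also names Ptms it was 3 (953 of 14836 symbols), an alternative chosen after seeing the data. Between responsive and PBS tumors the number was 2, Tigit and Tox, where 2633 of 15197 symbols had one. Only Tigit was left with a pseudocount of 0.1 (2394 of 15197 symbols) and with a filter at 5 FPKM (2062 of 11529), where Tox was not tested. It was also the only one without the tumors of the shared Lag3 row (2401 of 14346). Only Tox was left with all 9 tumors in 1 fit (2259 of 15197). With the hepatocyte covariate the 1 member was Entpd1, neither of the 2 (697 of 15197). The number was 0 to 5 when a tumor was left out, where 1104 of 14849 to 4282 of 14877 symbols had one. For nonresponsive over PBS it was 0 to 1 when a tumor was left out, where 231 of 14784 to 2067 of 14836 symbols had one. For all antibody-treated over PBS it was 0 to 2, where 360 of 15676 to 3440 of 15682 symbols had one. A median without Lag3 and Tigit, also added after seeing the data, was 0.58, 0.78, 0.25 and 0.45 in the 4 comparisons, and 0.56, 0.76, 0.24 and 0.45 without Lag3 alone.

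With the replicate number as a block, 0 members passed between responsive and PBS tumors, where 1042 of 15197 symbols did. Tigit and Tox were both lost, and no other count of members changed. The median differences did not change with the block, at 0.58, 0.47, 0.20 and 0.42. Same-numbered tumors did not deviate together, with correlations of -0.42 to 0.50 and 2 of 9 pairs over 0.1, so the numbers were not taken as pairs. Set against T cell markers, the median over members was 0.11, or 0.17 with the T cell receptor complex alone and 0.12 with the row shared by Trbc1 and Trbc2 counted once, added after seeing the data. Without read counts, the depth behind low values such as those of Tox is unknown.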
